A study of Mus musculus with 2 samples.

Results

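The genes described here are 9 members of the interleukin 17 and interleukin 22 axis: the cytokine genes Il17a, Il17f and Il22, the interleukin 23 subunit gene Il23a, the receptor genes Il23r, Il17ra, Il17rc and Il22ra1, and Il22ra2, which encodes a soluble decoy receptor for interleukin 22. They were taken by symbol, 9 of the 32285 genes in the matrices, and their UMIs (unique molecular identifiers, 1 for each captured transcript) were summed over cell classes named from marker genes, to set the cells that make the cytokines beside the cells that carry the receptors. All 9 had UMIs in both libraries.

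The cells came from mouse intestinal tumours raised by AOM-DSS, that is, the mutagen azoxymethane followed by the colitis-inducing polymer dextran sulfate sodium. The WT library held tumour cells of Mtch2fl/fl mice, which carry the floxed gene without Cre, and the cKO library those of Mtch2fl/fl VilCre mice, in which the villin promoter drives Cre in the intestinal epithelium. Both genotypes received this treatment. Tumours of several mice were pooled for each genotype, dissociated with trypsin and run as 1 droplet library, so the unit of replication is 1 library against 1 library. Neither the age nor the number of the mice is stated in the labels. A difference between the libraries therefore has no replicate check, and no test of genotype was made. All intervals are 95% and cover counting error only: exact Poisson for levels, exact binomial for ratios and Clopper-Pearson for shares. They treat UMIs as independent, although the UMIs of several of these genes lay in few cells.

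Interleukin 23, made of the Il23a product and the subunit p40 encoded by Il12b, is released mainly by myeloid cells and acts on lymphocytes that carry the Il23r product together with Il12rb1. In the gut these are T helper 17 cells, gamma delta T cells and innate lymphoid cells, which produce interleukins 17A, 17F and 22. Interleukins 17A and 17F act through a receptor of the Il17ra and Il17rc products on epithelium, stroma and myeloid cells, and interleukin 22 acts through Il22ra1 with Il10rb, mainly on epithelium, where both induce antimicrobial proteins and neutrophil-attracting chemokines.

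After filtering, 7245 cells with a median of 3723 UMIs remained in WT and 4388 cells with a median of 6928 UMIs in cKO. The epithelial-like class held 3296 and 2097 cells, the T-like class 288 and 398, the macrophage and monocyte-like class 270 and 330 and the neutrophil-like class 237 and 397, in WT and cKO in that order, which all pairs of values below follow. The T marker panel summed to 3746 and 3606 CPM (UMIs of a gene per 1000000 UMIs of the class) in T-like cells and to 13.9 and 15.4 CPM in epithelial-like cells, with all 10 markers detected in both classes. Mtch2, the deleted gene, stood at 93.5 and 23.5 CPM in epithelial-like cells, at 48.3 and 41.2 CPM in T-like cells, at 53.6 and 51.2 CPM in macrophage and monocyte-like cells and at 43.7 and 19.5 CPM in neutrophil-like cells. Unnamed clusters took 36.8% of the WT and 11.03% of the cKO cells, and 22 barcodes occurred in both libraries. By Xist and Y-linked UMIs, 1795 WT cells were assigned female and 1839 male, against 657 and 2217 in cKO. The mix of mice thus differed between the libraries, and its part in any ratio was not tested apart from the ratios within each sex given below.

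The promoters of the 3 cytokine genes and of Il23r are shown because these 4 genes were highest in T-like cells and because 3 of the 4 windows hold the hexamer AGGTCA, a core sequence bound by many nuclear receptors. Each window runs from 250 bases before to 50 bases after the RefSeq start of the gene (GRCm38.p6), printed 5′ to 3′ on the strand of the gene. Capitals mark AGGTCA, or TGACCT where the hexamer lies on the opposite strand, and TATAAA. The windows are chr1:20730655-20730954 on the plus strand for Il17a, chr1:20784221-20784520 on the minus strand for Il17f, chr6:67491806-67492105 on the minus strand for Il23r and chr10:118204714-118205013 on the plus strand for Il22.
Il17a: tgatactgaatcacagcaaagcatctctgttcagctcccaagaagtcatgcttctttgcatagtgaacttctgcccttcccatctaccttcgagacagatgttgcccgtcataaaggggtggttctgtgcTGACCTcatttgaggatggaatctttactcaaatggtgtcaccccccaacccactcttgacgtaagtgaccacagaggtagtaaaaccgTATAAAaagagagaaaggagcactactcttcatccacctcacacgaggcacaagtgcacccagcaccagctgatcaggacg
Il17f: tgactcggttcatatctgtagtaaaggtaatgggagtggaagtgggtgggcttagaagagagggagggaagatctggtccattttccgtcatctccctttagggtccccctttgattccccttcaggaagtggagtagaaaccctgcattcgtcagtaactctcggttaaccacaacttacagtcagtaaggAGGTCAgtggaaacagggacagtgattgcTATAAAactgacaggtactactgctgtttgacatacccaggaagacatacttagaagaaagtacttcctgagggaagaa
Il23r: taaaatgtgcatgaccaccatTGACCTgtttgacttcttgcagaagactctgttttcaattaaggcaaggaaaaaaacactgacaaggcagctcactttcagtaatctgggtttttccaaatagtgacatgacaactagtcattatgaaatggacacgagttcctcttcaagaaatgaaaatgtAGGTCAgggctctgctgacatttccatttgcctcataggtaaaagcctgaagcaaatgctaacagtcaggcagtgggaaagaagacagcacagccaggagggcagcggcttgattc
Il22: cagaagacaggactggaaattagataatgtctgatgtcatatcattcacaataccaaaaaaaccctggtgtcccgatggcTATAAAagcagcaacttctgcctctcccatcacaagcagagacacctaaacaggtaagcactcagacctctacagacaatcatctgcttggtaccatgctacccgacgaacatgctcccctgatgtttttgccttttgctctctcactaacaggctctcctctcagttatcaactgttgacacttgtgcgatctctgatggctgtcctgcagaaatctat
AGGTCA began 58 bases before the start in Il17f and 66 bases before it in Il23r, and lay on the opposite strand from base −120 in Il17a and from base −229 in Il23r. The window of Il22 did not hold it. On either strand AGGTCA was found in 16.3% of the 32851 promoter windows of the same length. TATAAA began at −31 in Il17a and at −29 in Il17f, and at −170 in Il22, and 13.6% of all windows hold it on either strand. These 2 of the 9 motifs searched are described, as matches of letters and not as measured binding. Windows were matched for 6 of the 9 genes, the other two being Il17rc and Il22ra1, neither of which held AGGTCA. Il17a and Il17f lie near each other on chromosome 1, at 20730905-20734496 on the plus strand and at 20777146-20790617 on the minus strand in the GENCODE M21 annotation. The window of Il17f, set by its RefSeq start, lies inside the GENCODE span of Il17f and not at its 5′ end. No annotated gene overlaps any of the 9 genes.

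Il17a, Il17f, Il22 and Il23r were transcripts of T-like cells in both libraries. T-like cells held 94.5% of the Il17a, 83.6% of the Il17f, 92.1% of the Il22 and 83.8% of the Il23r UMIs of all kept cells of the 2 libraries. Each of the 4 genes had its highest level there, a class that was highest for 9.61% in WT and 10.1% in cKO of the genes at 10 CPM or more in some class. Il17a, which encodes the founding cytokine of its family, reached 429 CPM (403–456) in WT T-like cells and 361.6 CPM (341.7–382.5) in cKO, against 0.233 and 0.323 CPM in epithelial-like cells. The ratio of the T-like to the epithelial-like level was 1801 (1209–2950) in WT and 1095 (742–1771) in cKO. Il17a was found in 44 of 288 and 61 of 398 T-like cells and in 0.607% and 0.954% of epithelial-like cells, whose median depth was 16907.5 and 25391 UMIs against 7442 and 7694 in T-like cells. Thinned to 2000 UMIs per cell, the expected share was 11.7% and 10.4% of T-like cells and 0.108% and 0.114% of epithelial-like cells.

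Il17f, the closest relative of Il17a, stood at 15.3 CPM (10.8–21.1) from 37 UMIs in 8 WT T-like cells and at 56.8 CPM (49.1–65.5) from 193 UMIs in 23 cKO cells. Il22 stood at 195.7 CPM (178.5–214.2) from 474 UMIs in 15 cells and at 89.5 CPM (79.8–100.2) from 304 UMIs in 22 cells. Il23r, the receptor subunit specific to interleukin 23, was the most widely found of the 4, in 105 WT cells (36.5%) at 270 CPM (249.7–291.6) and in 116 cKO cells (29.2%) at 232.7 CPM (216.7–249.5). At 2000 UMIs, with 4 and 3 shallower cells left out, the shares were 1.36% and 3.33% for Il17f, 4.07% and 3.53% for Il22 and 23.1% and 18.3% for Il23r. For each of these 4 genes the interval of every class below the T-like class overlapped that of the next, so neighbours in this order were not resolved. Some classes further apart were. In cKO, Il17a stood at 8.68 CPM (6.17–11.9) in macrophage and monocyte-like cells, where 37 of 39 UMIs lay in 1 cell. Its epithelial-like interval was 0.205–0.485 CPM. In WT, Il23r stood at 10.6 CPM (5.47–18.5) in fibroblast-like cells, from 12 UMIs in 1 cell, against 1.39 CPM (1.16–1.65) in epithelial-like cells.

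**Figure D1:**
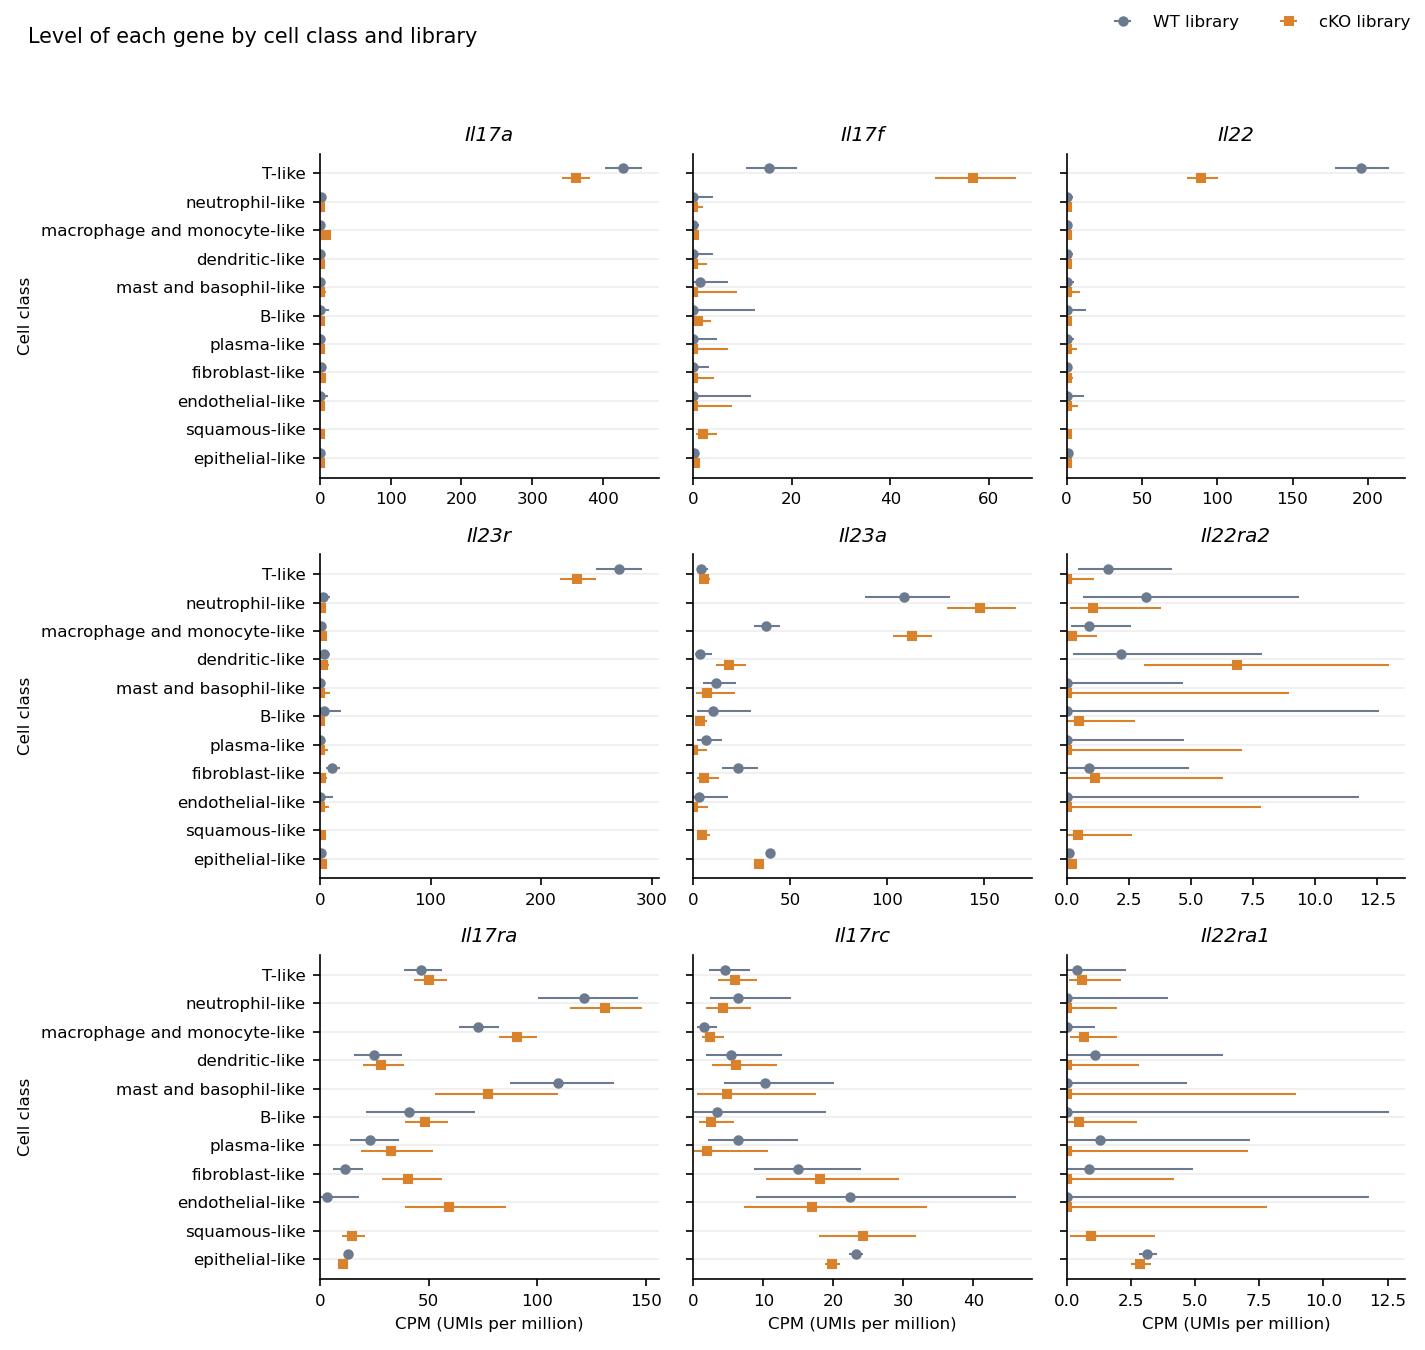
Level of each of the 9 genes (CPM, linear axes that differ between panels) in each cell class of the WT (circles) and cKO (squares) library, with exact 95% Poisson intervals; classes under 20 cells in a library are not drawn, and squamous-like cells were found in cKO alone. The panels of Il17a, Il17f, Il22 and Il23r peak in T-like cells, those of Il17ra and Il23a in neutrophil-like cells, and Il22ra1 peaks in epithelial-like cells.

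The cytokine transcripts were held by few cells, in which they were abundant. The highest WT T-like cell held 138 Il17a UMIs and the highest cKO cell 203, and the 3 highest cells held 35.8% and 39.2% of the Il17a UMIs. For Il17f the 3 highest cells held 75.7% and 63.2%, with at most 17 and 72 UMIs in 1 cell, and for Il22 51.5% and 51.3%, with at most 85 and 69 UMIs. Il23r was spread more evenly, with 15.4% and 21.1% of its UMIs in 3 cells. The 10% of T-like cells with most Il17a held 96.8% of the WT and 97.0% of the cKO UMIs, so a class level of these cytokines is an average over mostly empty cells.

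**Figure D2:**
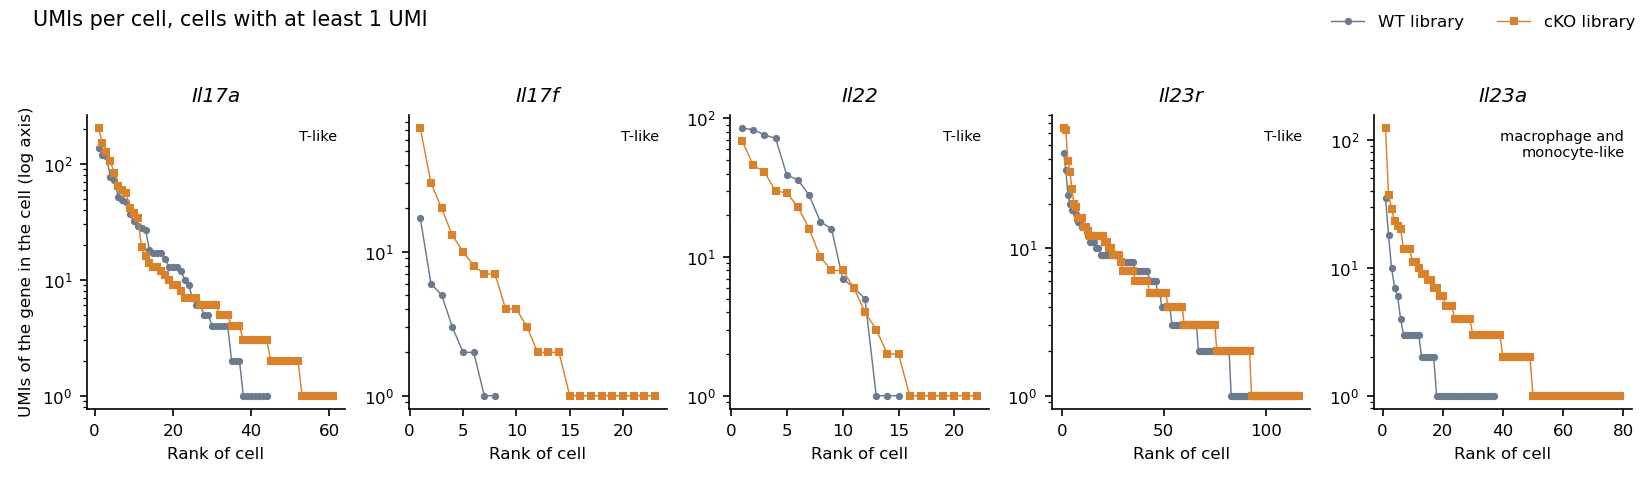
UMIs of a gene in each cell with at least 1 UMI, on a log axis, against the rank of the cell, for Il17a, Il17f, Il22 and Il23r in T-like cells and Il23a in macrophage and monocyte-like cells, WT circles and cKO squares. The Il17a curve starts at 138 UMIs in WT and 203 in cKO and the Il22 curve at 85 and 69.

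T-like cells were clustered again among themselves, without the 9 genes among the genes used. Sub-cluster T2 (41 and 42 cells; Cd163l1, Trdc and Blk among its leading genes) was named type 17 or gamma delta T-like. T0, T1 and T5 were regulatory T-like, T4 and T6 cytotoxic T-like and T8 NK-like. T3 (24 and 50 cells; Il22, Cd40lg and Il1r1 leading; Cd4 at 182 CPM) and T9 (16 and 17 cells; Ccl1, Penk and Ccl20 leading; Cd4 at 336 CPM) had no name under the marker rule.

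In T2 the level of Il17a was 1723 CPM (1586–1868) against 2386 CPM (2229–2552) in the cKO library, in 22 of 41 and 29 of 42 cells. T2 held 12.1% of the T-like cells of both libraries and 63.5% of their Il17a UMIs. T9 had the second highest level, 1465 and 1204 CPM in 10 of 16 and 6 of 17 cells, and 20.8% of the UMIs. In each library T9 held fewer than the 20 cells set for a level, so its values here and below rest on few cells. Of its Il17a UMIs, 116 of 270 in WT and 127 of 201 in cKO lay in 1 cell. T3 stood at 138 and 287 CPM with 7.06% of the UMIs. T11, also without a name (7 and 5 cells, Il5 and Il17rb leading), had 24 and 15 Il17a UMIs in 3 and 2 cells. Its Cd3e level was 0 CPM and its Gata3 level 964 CPM over both libraries. In T1, regulatory T-like by its markers, all 118 WT UMIs lay in 1 cell and cKO had 0. No Il17a UMI was found in cytotoxic T-like cells of either library.

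Il17f and Il22 were distributed otherwise. Il17f had 0 UMIs in WT T2 and T9, with upper bounds of 10.8 and 20.0 CPM, and stood at 241 and 365 CPM in the same cKO sub-clusters. Of the 86 Il17f UMIs of cKO T2, 72 were in 1 cell. In T3 the Il17f level was 88.9 and 86.8 CPM. Over both libraries T2 held 37.4%, T9 26.5% and T3 25.2% of the Il17f UMIs of T-like cells.

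Il22, whose product acts on epithelium and not on lymphocytes, was highest in T3, at 834 CPM (713–970) and 423 CPM (366–487), in 5 of 24 and 11 of 50 cells. T3 held 46.8% of the Il22 UMIs, T2 26.9% and T9 16.5%. In T2 the level was 540 CPM from 3 cells in WT and 69.9 CPM from 4 cells in cKO, and in T9 the 83 WT UMIs lay in 1 cell.

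Il23r reached beyond the cytokine-bearing cells. Its level in T2 was 622 CPM (541–712) and 646 CPM (565–735), in 34 of 41 and 26 of 42 cells, and T2 held 30.7% of its UMIs. In T3, where Il22 was highest, Il23r stood at 267 and 428 CPM. Regulatory T-like cells had it at 334.5 and 218 CPM, in 39.8% and 33.8% of cells, with 623 and 366 CPM in T5, 253 and 280 CPM in T0 and 242 and 61.5 CPM in T1. Cytotoxic T-like cells had 0 Il23r UMIs in both libraries. The 32 NK-like cells of cKO had 38 UMIs in 7 cells (119 CPM), and the 12 of WT, too few for a level, had 0, with an upper bound of 30.5 CPM.

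**Figure D3:**
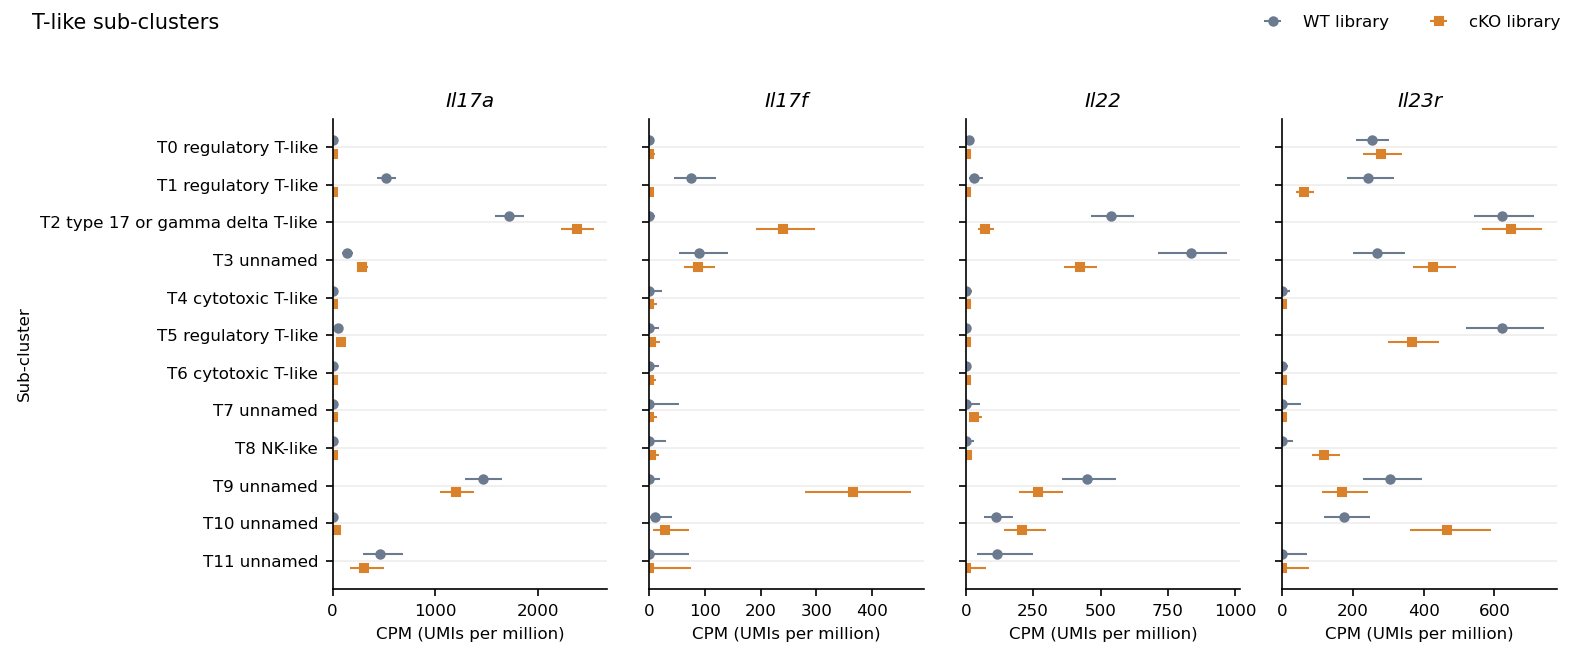
Level (CPM, linear axes that differ between panels) of Il17a, Il17f, Il22 and Il23r in the 12 T-like sub-clusters of the WT (circles) and cKO (squares) library, with exact 95% Poisson intervals. Il17a is highest in T2 and T9, the latter with fewer than 20 cells in each library, and Il22 in T3. Il23r has levels above 200 CPM in T0, T2, T3 and T5 of both libraries.

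Within single cells, most cells with Il17a, Il17f or Il22 also had Il23r. Il23r was found in 69.5% of the cells with Il17a and in 25.5% of the T-like cells without it, and cells with Il23r had a median of 8886 UMIs against 6980 in those without. Of the 686 T-like cells, 424 had none of the 4 genes, 171 had 1, 59 had 2, 23 had 3 and 9 had all 4. Of the 105 cells with Il17a, 73 also had Il23r, 25 Il17f and 19 Il22. The same cells had Trdc, the gamma delta receptor constant chain, in 42, Cd4 in 41 and Foxp3 in 6. Of the 31 cells with Il17f, 25 had Il17a and 25 had Il23r, while Cd4 was found in 23 and Trdc in 5. Of the 37 cells with Il22, 28 had Il23r, 19 had Il17a, 18 had Cd4 and 3 had Trdc. Of the 221 cells with Il23r, 86 had Foxp3, the factor that defines regulatory T cells, 73 had Il17a and 3 had Cd8a. Il12rb1, the partner of Il23r, was found in 22 of 105 and 14 of 116 Il23r cells. These counts miss transcripts that were not captured and may include free RNA and undetected doublets, whose part was not tested.

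Between the libraries, the 4 genes did not differ in one direction in T-like cells. A difference was counted as called where it was at least 1.5-fold and its counting interval held no 0, a rule that 6.92% of the 9055 genes measured in T-like cells met, 2.98% higher and 3.94% lower in cKO. Il17f was called higher in cKO, by 1.88 on the log2 scale (1.38 to 2.44). Il22 was called lower, with a log2 ratio of −1.13 (−1.34 to −0.92). Il17a, at −0.25 (−0.37 to −0.13), and Il23r, at −0.22 (−0.37 to −0.06), stayed under 1.5-fold. The sign of the point ratio differed between the sexes for Il17f and Il23r. Among cells assigned female the log2 ratio of Il17f was −0.51 (32 and 9 UMIs) and that of Il23r 1.16, and among cells assigned male they were 4.09 (3 and 150 UMIs) and −0.84. The Il17f value among cells assigned female, from few UMIs, did not resolve a direction. Il22 had 292 UMIs in WT and 0 in cKO cells assigned female and a log2 ratio of −0.59 in those assigned male, and Il17a had −0.77 and −0.08. The T-like cells assigned female numbered 119 and 50 and those assigned male 121 and 294. Without the cell with the most UMIs in each library, an alternative chosen after seeing the data, the ratios were 2.08 for Il17f, −1.21 for Il22, −0.30 for Il17a and −0.24 for Il23r.

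More genes of the type 17 program were lower than higher in the cKO T-like cells. Of 32 listed genes 30 were measured, 9 higher and 21 lower in cKO, none called higher and 6 called lower. Over all measured genes 2.98% were called higher and 3.94% lower. The median log2 ratio was −0.11 against −0.01 over all measured genes. Il17f, called higher, is not among the listed genes. Ccl20, a chemokine that draws Ccr6-bearing lymphocytes, had 192 UMIs (79.3 CPM) in WT but 12 UMIs (3.53 CPM) in cKO, with a log2 ratio of −4.43. Csf2, which encodes the growth factor GM-CSF, had levels of 69.0 and 15.9 CPM (−2.11). Ramp1 (−0.78) and Irf4 (−0.61) were called lower as well, and so was Lta (−0.93), which reached the minimum of 10 CPM in WT alone (10.74 and 5.595 CPM). Il12rb1, from the list of partner subunits, was called lower too, at 16.1 and 8.84 CPM (−0.86), and likewise reached the minimum in WT alone. The cytotoxic marker panel summed to 1046 and 1717 CPM and the regulatory panel to 4146 and 3657 CPM in T-like cells, and the part of the make-up of the class in these ratios was not tested.

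Il17a, Il17f, Il22 and Il23r UMIs outside T-like cells were few. Of the 53 Il22 UMIs in WT epithelial-like cells, 33 were in 1 cell with 77446 UMIs, of which 11 were of Cd3 genes and 16 of T cell receptor genes; cKO epithelial-like cells had 7. Of the 39 Il17a UMIs in cKO macrophage and monocyte-like cells, 37 were in 1 cell with 50894 UMIs and 37 Cd3 UMIs. Il23r was found in 74 and 54 epithelial-like cells, at 1.39 and 1.49 CPM. Of these, 8.11% and 9.26% had a Cd3 UMI, against 3.76% and 2.99% of the other epithelial-like cells. The WT cell with the most Il23r, 10 UMIs, was the cell with 33 Il22 UMIs, while the cKO cell with the most, also 10 UMIs, had 0 Cd3 and 0 receptor UMIs. Epithelial-like cluster 1 held 75 of the 131 WT and 47 of the 106 cKO Il23r UMIs of the class, at 3.089 and 3.203 CPM.

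Il23a, the upstream member, came from different cells. Epithelial-like cells held 83.1% of its UMIs in kept cells, 6139 of 7390, at 39.5 CPM (38.2–40.7) and 34.0 CPM (32.6–35.3) in 976 and 609 cells. This class held most of all UMIs, 165525937, where kept cells had 108394396 in WT and 89182623 in cKO. Its share of Il23a was thus no larger than its share of all UMIs. By level in CPM the highest class was neutrophil-like, at 108.8 CPM (88.7–132.1) and 147.8 CPM (131.0–166.2), a class that was highest for 8.09% and 6.75% of such genes. Macrophage and monocyte-like cells stood at 37.7 CPM (31.5–44.8) in WT, an interval that overlapped the epithelial-like one, and at 112.6 CPM (103–122.8) in cKO. Dendritic-like cells stood at 3.27 and 18.2 CPM and T-like cells at 4.129 and 5.595 CPM.

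Il12b, which encodes the subunit that Il23a needs to form interleukin 23, was found in few cells. It stood at 17.4 and 141 CPM in dendritic-like cells and at 12.1 and 9.12 CPM in macrophage and monocyte-like cells, had 4 and 0 UMIs in epithelial-like cells and 0 in neutrophil-like cells of both libraries. Any Il12b UMI was found in 3 and 4 macrophage and monocyte-like cells and in 7 and 5 dendritic-like cells. Cells with both transcripts numbered 0 and 2 among macrophage and monocyte-like cells, 0 and 1 among dendritic-like cells and 1 and 0 among epithelial-like cells.

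In macrophage and monocyte-like cells Il23a was called higher in cKO, by 1.57 on the log2 scale (1.30 to 1.87), in 37 of 270 and 79 of 330 cells. In that class 11.8% of 8662 genes were called, 5.31% higher and 6.44% lower. The higher level in cKO held among cells assigned female (3.34) and male (0.74). The cell with the most Il23a had 35 UMIs in WT and 123 in cKO, and without these the levels were 27.5 and 85.9 CPM. The difference was in cluster 10 (38.6 and 118.9 CPM), since cluster 14 had 6 and 0 UMIs. Other cytokines of this class differed more: Il6, a driver of type 17 differentiation, stood at 12.4 and 139 CPM (log2 ratio 3.48), and Il10, an anti-inflammatory cytokine, at 36.2 and 184 CPM (2.34). Of 8 measured ligand and subunit genes, 3 were called higher (Il6, Il10 and Il27, the last at 0.74 and at 10 CPM or more in cKO alone) and 1 lower (Ebi3, −0.68).

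In neutrophil-like cells the log2 ratio of Il23a was 0.44 (0.11 to 0.78), under 1.5-fold, in a class where 19.3% of 7446 genes were called, 2.34% higher and 16.9% lower. Its clusters differed in direction, with 108.5 and 167.6 CPM in cluster 8 and 109.7 and 47.8 CPM in cluster 17. In epithelial-like cells the ratio was −0.22 (−0.29 to −0.14), also not called, and it was 0.48 among cells assigned female and −0.39 among those assigned male. In that class 2.02% of 9400 genes were called, 0.862% higher and 1.16% lower.

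The 2 chains of the interleukin 17 receptor were highest in different classes. Il17ra, the shared signalling chain for interleukins 17A and 17F, was highest in myeloid cells. It stood at 121.6 CPM (100.3–146.1) and 131.0 CPM (115.2–148.3) in neutrophil-like cells, 109.5 and 77.5 CPM in mast and basophil-like cells and 72.7 and 90.8 CPM in macrophage and monocyte-like cells. T-like cells stood at 46.7 and 50.4 CPM and B-like cells at 40.9 and 48.5 CPM, with intervals that overlapped. Epithelial-like cells were near the bottom of the order at 12.9 CPM (12.2–13.6) and 10.6 CPM (9.90–11.4). They held 52.4% of the Il17ra UMIs, a share below their share of all UMIs. Endothelial-like cells had 1 UMI in WT and 28 in cKO, from 52 and 55 cells.

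Il17rc, the chain that pairs with Il17ra, was a transcript of epithelium and stroma. Epithelial-like cells, which held most of all UMIs, had 92.6% of the Il17rc UMIs, at 23.2 CPM (22.2–24.2) and 19.9 CPM (18.8–20.9). The intervals of endothelial-like cells (22.4 and 16.9 CPM), fibroblast-like cells (15.0 and 18.1 CPM) and cKO squamous-like cells (24.2 CPM) reached into or near the same range, whereas macrophage and monocyte-like cells stood at 1.47 and 2.45 CPM. Neutrophil-like cells, the highest for Il17ra, had 6 and 8 Il17rc UMIs. Il17rc was found in 54.0% and 50.5% of the epithelial-like cells with an Il17ra UMI and in 28.7% and 26.8% of the rest. Cells with more UMIs show more of any gene, and depth was not matched in these shares.

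Il22ra1, the chain specific to interleukin 22, was at low level, with epithelial-like cells the highest class. Epithelial-like cells, which held most of all UMIs, had 3.15 CPM (2.80–3.53) and 2.87 CPM (2.49–3.29), in 222 and 162 cells, and 94.9% of the Il22ra1 UMIs. No other class had more than 3 UMIs in a library, including the 1 and 2 UMIs of the T-like cells where Il22 lay. Those classes were smaller, and the epithelial-like interval overlapped that of the next class in both libraries. Upper bounds below it were those of T-like cells (2.30 and 2.13 CPM) and macrophage and monocyte-like cells (1.09 and 1.95 CPM). Cells without a class had 13 and 2 UMIs, at 4.38 and 4.64 CPM. Epithelial-like cells were the highest class for 16.1% in WT and 14.1% in cKO of the genes at 10 CPM or more in some class, a level that Il22ra1 itself did not reach. Il10rb, its partner, stood at 30.6 and 32.4 CPM there and was found in 71.6% and 71.0% of the Il22ra1 cells against 36.7% and 41.2% of the rest, again without matched depth. Il22ra2, the decoy receptor, had 7 and 16 UMIs in epithelial-like cells and 2 and 9 in dendritic-like cells, of which 6 were in 1 cell, and no class level was resolved from its neighbours.

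In epithelial-like cells neither Il17ra nor Il17rc was called, and Il22ra1, under the minimum of 10 CPM, could not be called. The log2 ratio of Il17ra was −0.27 (−0.41 to −0.14), that of Il17rc −0.22 (−0.32 to −0.13) and that of Il22ra1 −0.13 (−0.40 to 0.13). Among cells assigned female Il17ra and Il17rc stood slightly higher in cKO (0.19 and 0.11), among cells assigned male lower (−0.50 and −0.34). In macrophage and monocyte-like cells the Il17ra ratio was 0.32 (0.09 to 0.55) and in neutrophil-like cells 0.10, the latter with −0.54 among cells assigned female and 0.23 among those assigned male.

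**Figure D4:**
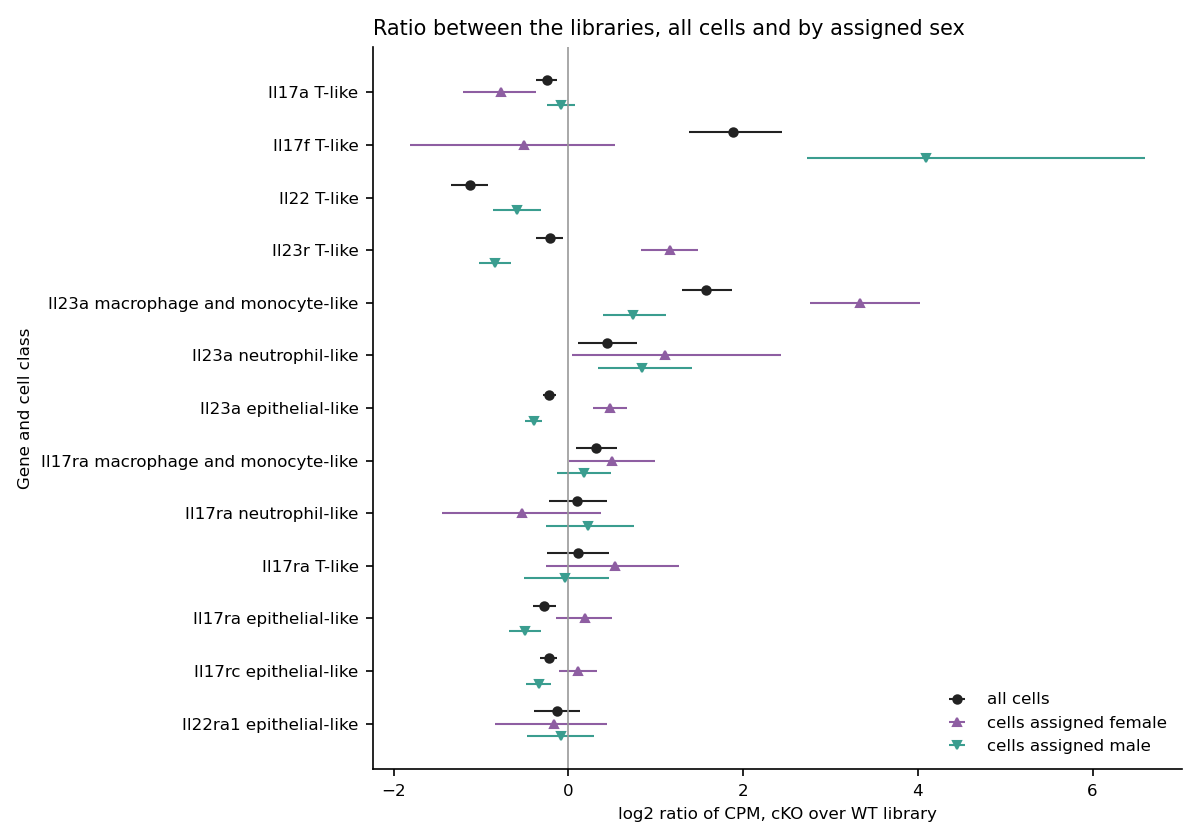
Log2 ratio of CPM, cKO over WT library, for each gene and class with exact 95% counting intervals, over all cells of the class (circles), cells assigned female (upward triangles) and cells assigned male (downward triangles). The female value of Il22 in T-like cells is not drawn because cKO had 0 UMIs there. Il23a in macrophage and monocyte-like cells lies above 0 in all 3 settings. The point values of Il17f and Il23r in T-like cells lie on both sides of 0.

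Inside the epithelium Il17rc and Il22ra1 were highest in other clusters than Il23a. The 10 epithelial-like clusters were set apart, after their values were seen, into 3 with more Krt20 than Lgr5 (clusters 4, 5 and 13), Krt20 being a marker of differentiated surface cells, and 7 with more Lgr5, a marker of crypt base stem cells. Il22ra1 stood at 9.47 CPM in the Krt20 clusters and 1.12 CPM in the Lgr5 clusters of WT, and at 7.04 and 1.37 CPM in cKO, log2 ratios of 3.07 (2.70 to 3.47) and 2.35 (1.93 to 2.79). Il17rc stood at 44.0 against 16.5 CPM and at 38.5 against 13.2 CPM, ratios of 1.41 and 1.55. Il10rb, the partner of Il22ra1, had ratios of 1.07 and 1.11. Il17ra went slightly the other way, with ratios of −0.38 and −0.47, and the few Il23r UMIs did so too, with ratios of −1.89 and −2.47.

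Il23a was lower in the Krt20 clusters, where Il17rc and Il22ra1 were higher. It stood at 4.62 CPM in the Krt20 clusters and 50.6 CPM in the Lgr5 clusters of WT, and at 3.10 and 45.0 CPM in cKO, log2 ratios of −3.45 (−3.75 to −3.17) and −3.85 (−4.26 to −3.49). By the 1.5-fold rule 15.6% and 15.5% of the genes measured were higher in the Krt20 clusters and 36.2% and 36.4% lower, in WT and cKO.

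Among single clusters, Il23a was highest in cluster 1 (led by Mdga2 and Cadps), at 88.2 and 86.0 CPM, followed by cluster 2 at 45.6 and 44.2 CPM and cluster 3 (Fstl4, Lgr5) at 32.3 and 36.4 CPM, and lowest in cluster 13 at 4.54 and 1.39 CPM. Il17rc was highest in cluster 13 (64.9 and 54.6 CPM), then cluster 5 (50.2 and 37.8 CPM) and cluster 4 (36.8 and 29.5 CPM), against 13.6 and 9.61 CPM in cluster 1. Il22ra1 was highest in cluster 5 (14.3 and 14.9 CPM) and cluster 4 (9.97 and 7.55 CPM), against 0.330 and 0.273 CPM in cluster 1. Cluster 1 had the lowest epithelial marker score of the 10, 0.46 above the mean of all clusters on the log2 scale, and no gene of the epithelial panel among its leading genes. Cluster 5 is shallow in cKO, with a median of 1956 UMIs against 4135 in WT, and none of its leading genes is in the epithelial panel. Leaving it out, an alternative chosen after seeing the data, moved no ratio between the libraries out of its interval.

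**Figure D5:**
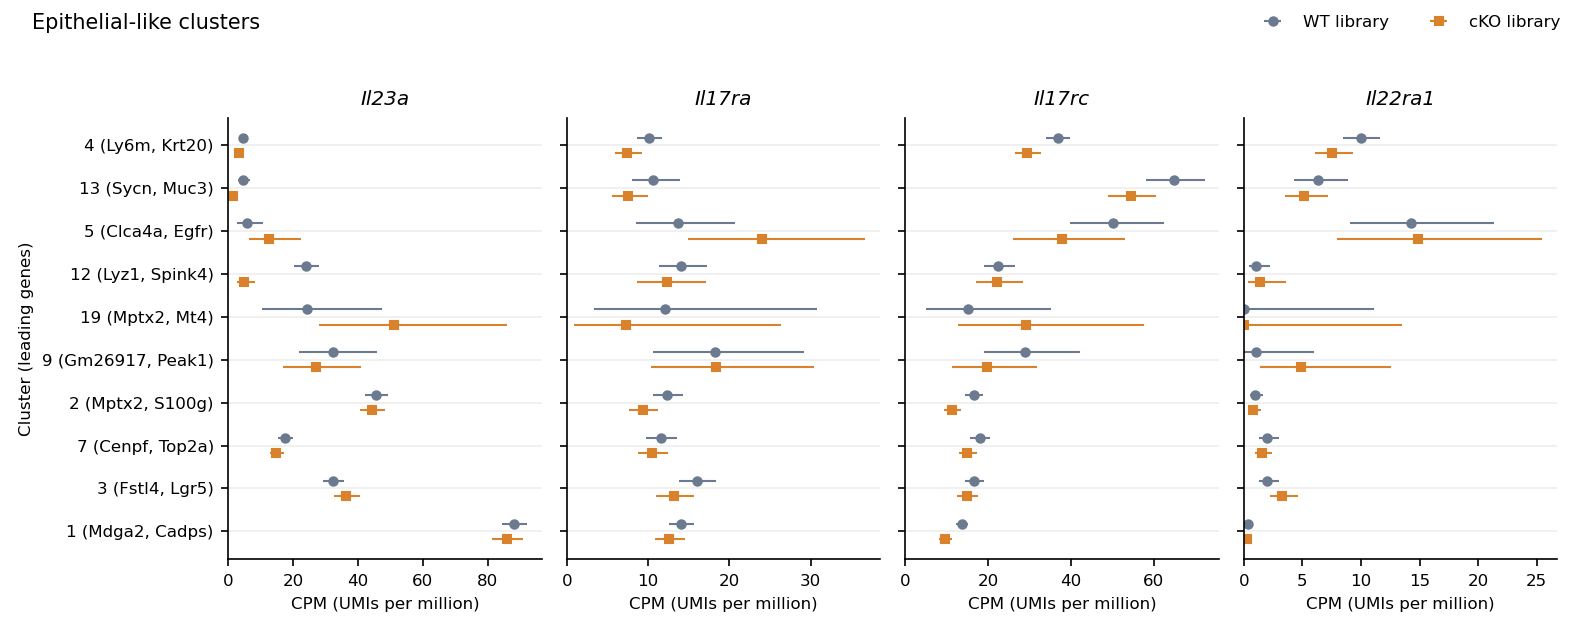
Level (CPM, linear axes that differ between panels) of Il23a, Il17ra, Il17rc and Il22ra1 in the 10 epithelial-like clusters, each with its number and 2 leading genes, in the WT (circles) and cKO (squares) library with exact 95% Poisson intervals. Il23a peaks in cluster 1 and Il17rc and Il22ra1 in clusters 13, 5 and 4.

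Of the listed genes downstream of the receptors, most were not called in epithelial-like cells. Of 22 measured signalling and partner genes 5 were higher and 17 lower in cKO and none was called, with a median log2 ratio of −0.11 against −0.02 over all genes. Of 22 measured targets of interleukin 17, 12 were higher and 10 lower, 3 were called higher and none lower, with a median of 0.03, where 0.862% of all measured genes were called higher and 1.16% lower. The called genes were S100a8 (27.0 and 46.3 CPM, 0.78) and S100a9 (29.7 and 57.9 CPM, 0.97), which encode the calprotectin subunits, and Lrg1 (51.0 and 81.9 CPM, 0.69), which encodes a secreted glycoprotein. S100a8 and S100a9 are also major neutrophil transcripts, at 23352 and 40950 CPM and at 35450 and 61277 CPM in neutrophil-like cells, and S100a8 stood at 11.6 and 52.1 CPM in T-like cells. All 10 neutrophil markers were found in epithelial-like cells, summed to 121.5 and 201.2 CPM, and the part of neutrophil RNA in the values of S100a8 and S100a9 was not tested.

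Of 30 measured targets of interleukin 22, 20 were higher and 10 lower in cKO, 4 called higher and 1 lower, with a median of 0.13. Over all measured genes of the class 0.862% were called higher and 1.16% lower. Besides S100a8 and S100a9, which both lists hold, Saa1, which encodes the acute phase protein serum amyloid A, stood at 203 and 371 CPM (0.87) and Muc1, a membrane mucin, at 7.53 and 12.9 CPM (0.77), passing the minimum of 10 CPM through the cKO library. Reg4, a lectin of secretory cells, was called lower, at 231.5 and 81.4 CPM (−1.51). Reg4 is a leading gene of cluster 12 (Lyz1, Spink4), which held 206 of the 3296 WT and 76 of the 2097 cKO cells of the class, and the part of this make-up in its ratio was not tested. Saa1, a leading gene of cluster 4, was highest there, at 948 and 1704 CPM. Cluster 13 had 310 and 815 CPM of Saa1, cluster 5 had 125 and 313 CPM and cluster 1 had 15.5 and 23.4 CPM. In the Krt20 clusters (4, 5 and 13), where Il22ra1 was highest, 15.6% and 15.5% of measured genes met the 1.5-fold rule as higher. Among the listed targets of interleukin 22, only Saa1 is given by cluster here, and a link to Il22ra1 was not tested.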

How the data were processed

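Each library was deposited as whole-number UMI counts per gene and barcode, for which the matrix headers name Cell Ranger 7.2.0 and the submitters' processing notes name mm10 and Seurat 3.0. Neither chemistry nor intron counting is stated. WT held 9445 barcodes with 116066712 UMIs and cKO 6723 with 97364087. Barcodes under 500 genes or over 25% mitochondrial UMIs were left out, as were the barcodes with the highest Scrublet scores, 0.8% per 1000 barcodes, called doublets (658 and 274 removed after the other filters). Both libraries were clustered together in scanpy 1.11.5 and leidenalg 0.10.2 (2000 variable genes without the 9 genes, Mtch2, sex-linked and receptor genes; 30 components, 20 neighbours, resolution 1) without batch correction, giving 31 clusters and 12 classes named from markers. T-like cells were clustered again (1000 genes, 20 components), a step added after the design was set. Levels are summed UMIs of the class divided by its total; genes reaching 10 CPM in either library were measured, and called at 1.5-fold with a 95% interval without 0, and ratios add 0.5 counts. Intervals used scipy 1.17.1. Thinned shares are expected values. The interval code was tested on simulated data. Classes were compared between libraries where both held at least 100 cells. Named genes were the 9 genes, their partner subunits and the called genes of the fixed lists, of which 1 called gene is not reported here. The 9 genes and the lists were chosen with earlier results of these data known. Replicates were not available to compare, and alternatives are given in the closing section.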

Additional observations from a re-analysis of the deposited data

Results flagged for a closer look

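For some genes the difference between the libraries was not the same in different cell classes; each class had 1 library per genotype, so the difference between classes was not tested. The log2 ratio of cKO over WT of Il17a was 6.146 higher in macrophage and monocyte-like cells than in T-like cells, a value set by 1 cKO cell that held 37 of 39 UMIs and also 37 Cd3 UMIs. For Il23a the ratio was 1.79 higher in macrophage and monocyte-like cells, and 0.6537 higher in neutrophil-like cells, than in epithelial-like cells. For Il17ra it was 0.592 higher in macrophage and monocyte-like cells than in epithelial-like cells. Barcodes removed by the filters held Il22 at 12.47 CPM in cKO and 0.2607 CPM in WT: the 102 cKO UMIs lay in 8 barcodes, 6 of them called doublets, and 54 were in 1 doublet whose nearest class was dendritic-like.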

How the results depend on the processing

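Of 160 recomputed values of 13 ratios, 150 had the reported direction, 123 stayed within the reported counting interval, and the rest left it. Direction here is the sign of the point value alone, and that of Il17f among cells assigned female rests on few UMIs. Of the 10 with the other direction, 5 belonged to ratios whose reported interval excluded 0, all 5 among cells assigned female: Il17f (−0.51) and Il23r (1.16) in T-like cells, and Il17ra (0.19), Il17rc (0.11) and Il23a (0.48) in epithelial-like cells. The other 5 were Il22ra1 in epithelial-like cells (0.44 as the mean of per-cell CPM, 0.054 with equal weights of clusters), Il17ra in neutrophil-like cells (−0.54 among cells assigned female, −0.051 with equal weights) and Il17ra in T-like cells (−0.038 among cells assigned male). Cells assigned female also gave −0.77 for Il17a and −7.92 for Il22 (0 cKO UMIs, a fitted value and no bound) in T-like cells and 3.34 for Il23a in macrophage and monocyte-like cells. Cells assigned male gave −0.082 for Il17a, 4.09 for Il17f, −0.59 for Il22 and −0.84 for Il23r in T-like cells, −0.50 for Il17ra, −0.34 for Il17rc and −0.39 for Il23a in epithelial-like cells, and 0.74 for Il23a in macrophage and monocyte-like cells. With all barcodes, no doublets removed, or a gate on each cell alone, Il17a in T-like cells gave −0.063, −0.068 and −0.037; the first 2 gave −0.83 and −0.84 for Il22. With equal weights of clusters, Il17a gave −0.76, Il17f 1.02 and Il22 −0.44 in T-like cells, Il17ra −0.048, Il17rc −0.35 and Il23a −0.029 in epithelial-like cells, and Il23a 0.89 and Il17ra 0.028 in macrophage and monocyte-like cells. The mean of per-cell CPM gave 2.48 for Il17f in T-like cells, and 0.94 for Il23a and 0.65 for Il17ra in macrophage and monocyte-like cells. Apart from the settings that change the cells used, the causes were not tested. The genes called among the targets of interleukin 22 in epithelial-like cells numbered 5, 9 with no minimum level and 3 with a minimum of 50 CPM; those of the type 17 program there numbered 1, 7 and 0. No paired analysis was possible because each genotype is 1 library, for which no replicate could be left out either. Of the expected shares, 6 of 8 kept within their interval at 1000 UMIs. Depth limits Il22ra2, Il22ra1 outside epithelium and Il17f in WT, which rest on few UMIs.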

Other observations

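Il17a was also found in cells without a class. In cluster 24, 61 WT cells led by Dcn and Hbb-bs, 35 Il17a UMIs lay in 23 cells with at most 4 in a cell, a level of 263 CPM against 429 CPM in WT T-like cells. Other T cell genes were found in these cells at levels below those of WT T-like cells. Cd3g stood at 173 against 611 CPM, Trdc at 52.7 against 161 CPM and Trbc2 at 97.8 against 637.5 CPM. Cd3e had 7, Cd3d 5 and Ptprc 20 UMIs. Cd4, Trac, Il23r and Il22 had 0 UMIs, where 3 UMIs would be 22.6 CPM. The source of the Il17a UMIs was not tested.

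In macrophage and monocyte-like cells, genes of the list of interleukin 17 targets, drawn up for epithelium, were mostly higher in cKO. Of 23 measured, 19 were higher and 4 lower, 11 called higher and 2 lower. Over all genes, 5.31% were called higher and 6.44% lower. The median log2 ratio was 0.58 against −0.05 over all genes. Il6 is in this list as well as among the ligands, and S100a8 and S100a9, major neutrophil transcripts, are in it too. Il17rc stood at 1.47 and 2.45 CPM in this class. Neither a response to interleukin 17 nor the part of neutrophil RNA was tested here.

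Over the 19 sums of a class or cluster and a library with enough cells, the profile nearest to that of each gene by Pearson correlation of log values, out of 7972 genes, was that of Cd3e for Il17a, Gzma for Il17f, Tff1 for Il22, Actn2 for Il23r, Ier5 for Il17ra, Pard3 for Il17rc, Pkhd1 for Il22ra1 and Tlr2 for Il23a. The sums share libraries and depth, and with a pseudocount of 1 CPM in place of 10 CPM, 9 of 24 nearest genes were shared.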
